A study of Mus musculus with 105 samples.

Results

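The 10 genes described here mark developing T cells and the epithelium of the thymus: Rag1, Rag2, Dntt, Ptcra, Cd4, Cd8a and Cd8b1 for thymocytes, and Foxn1, Psmb11 and Aire for thymic epithelial cells. They were taken by symbol from the raw count matrix, where all 10 of 10 symbols were found among 53379 gene rows. The series holds 105 poly(A) RNA-seq libraries from C57BL/6 mice or from mouse cells. Tissue libraries came from WT female mice whose organs were kept in RNAlater, with 4 libraries each for thymus, lymph node (LN), spleen, brain, colon, heart, kidney, liver, lung, ovary, skin and stomach. The cultured libraries were B16 and B16OVA melanoma cells, MCAOVA cells of the fibrosarcoma line MCA101 and MC38 colon adenocarcinoma cells, each as Setdb1KO, Ctrl and WT, with 3 libraries per group in B16, MCAOVA and MC38 and 6 per group in B16OVA. A further 5 libraries came from melanocytes cultured from newborn mice. Another 7 single WT libraries of tumour lines carry the code B176 in their names and entered no test. Codes of this kind are called runs below, though the sample titles do not say what they stand for. Tumour cells were kept in medium with puromycin.

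T cell receptor genes are assembled in the thymus by V(D)J recombination, in which the RAG1 and RAG2 proteins cut the DNA together and terminal deoxynucleotidyl transferase, the product of Dntt, adds bases at the joins. A first receptor chain pairs with the pre-T-cell receptor alpha chain (Ptcra), after which thymocytes carry both CD4 and CD8 until they are selected into one lineage. Selection depends on the thymic epithelium, where FOXN1 drives the epithelial programme, PSMB11 forms the cortical thymoproteasome and AIRE lets medullary cells transcribe genes of other organs.

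Promoters are shown for 4 members as examples of 3 short motif cores known from T cell or thymic epithelial biology; an E-box was found in every member window, so it does not set these 4 apart. Each window is the 250 bases before the start of the gene in RefSeq on GRCm38.p6, read 5′ to 3′ on the strand of the gene. Such windows were found for 8 of 10 members and for 27025 genes, which gave 32851 windows in all. Capitals mark the motif: TGTGGT (Runx core) for Rag1 at chr2:101649533-101649782, minus strand; CANNTG (E-box) for Ptcra at chr17:46763713-46763962, minus strand; and GACGC (Foxn1 core) for Psmb11 at chr14:54625060-54625309, plus strand, and for Aire at chr10:78043611-78043860, minus strand. Both strands were searched, so the Foxn1 core also shows as its reverse complement, GCGTC.
Rag1: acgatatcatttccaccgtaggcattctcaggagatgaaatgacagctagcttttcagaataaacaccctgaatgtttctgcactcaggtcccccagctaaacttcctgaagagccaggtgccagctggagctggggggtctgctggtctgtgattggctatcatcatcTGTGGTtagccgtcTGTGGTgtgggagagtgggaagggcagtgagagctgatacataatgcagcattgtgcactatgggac
Ptcra: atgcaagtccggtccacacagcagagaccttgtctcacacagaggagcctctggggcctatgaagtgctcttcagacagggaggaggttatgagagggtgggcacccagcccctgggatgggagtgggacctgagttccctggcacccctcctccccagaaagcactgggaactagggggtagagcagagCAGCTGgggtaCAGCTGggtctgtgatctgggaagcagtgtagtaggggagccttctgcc
Psmb11: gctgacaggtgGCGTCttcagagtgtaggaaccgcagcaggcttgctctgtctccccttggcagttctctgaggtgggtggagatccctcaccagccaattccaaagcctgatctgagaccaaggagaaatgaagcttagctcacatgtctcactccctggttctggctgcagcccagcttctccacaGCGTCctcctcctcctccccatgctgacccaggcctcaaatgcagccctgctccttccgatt
Aire: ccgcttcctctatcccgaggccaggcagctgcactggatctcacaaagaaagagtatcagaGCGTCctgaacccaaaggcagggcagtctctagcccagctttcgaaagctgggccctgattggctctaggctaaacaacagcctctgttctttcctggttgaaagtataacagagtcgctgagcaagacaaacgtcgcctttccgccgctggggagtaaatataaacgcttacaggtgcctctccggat
The Rag1 window held 2 Runx cores, whose first bases lay 81 and 67 bases before the start. The Ptcra window held 2 E-boxes, 60 and 49 bases before the start, both spelled CAGCTG. The Psmb11 window held 2 Foxn1 cores, 239 and 62 bases before the start, and the Aire window held 1, 189 bases before it. The Psmb11 window lies inside the longer span that GENCODE vM21 gives that gene. Of all windows, 14.05% held at least 1 Runx core, 66.2% an E-box and 22.6% a Foxn1 core, so these short strings are common, and a match is a description of the letters and not a site.

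In units of 1000000 counts, library totals ran from 53.6 to 254 in tissues, from 17.2 to 50.4 in the 45 tumour libraries of the 3 runs that were tested, and from 19.9 to 30.6 in melanocytes. They ran from 66.7 to 147 in thymus, from 68.9 to 85.7 in LN and from 66.4 to 110 in spleen. The thymus libraries differed in genes of neighbouring tissue. Myh6, a heart muscle myosin, read 5.62, 92.1, 110 and 0.0766 counts per 1000000 counts of the library (CPM) in thymus replicates 1 to 4, Ucp1, a brown fat gene, read 5.03, 117, 133 and 0.276 CPM, and Pth, the parathyroid hormone gene, read 23.7, 11.7, 0.405 and 26.2 CPM. Their part in the thymus values was not tested; thymus libraries were left out one at a time, and replicates 2 and 3 were not left out together. The labels do not say that replicates are separate animals or cultures, so p-values measure the spread between these libraries only.

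All 10 members were highest in thymus by mean level. Per kilobase of exon, the thymus order was Cd8b1 at 660 ± 64.2 CPM per kilobase (SD, n = 4 here and below for tissues), Dntt at 545 ± 39.3, Cd8a at 412 ± 19.3, Rag1 at 330 ± 112, Cd4 at 233 ± 16.6, Rag2 at 58.6 ± 10.7, Psmb11 at 29.3 ± 6.29, Ptcra at 28.3 ± 8.07, Aire at 15.9 ± 1.15 and Foxn1 at 10.7 ± 3.06. The 5 most abundant were thus thymocyte genes, Psmb11 and Ptcra were close to each other, and Aire and Foxn1 were the lowest. In bulk tissue, fewer cells of a type and less RNA per cell cannot be told apart. The members fell into groups by how much of their signal lay outside the thymus. The thymus mean made up 99.8% of the sum of the 12 tissue means for Rag1, for Rag2 and for Psmb11, 99.1% for Ptcra and 99.0% for Dntt. It made up 79.5% for Cd8b1, 78.7% for Cd8a, 76.9% for Aire, 67.5% for Cd4 and 56.8% for Foxn1.

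**Figure D1:**
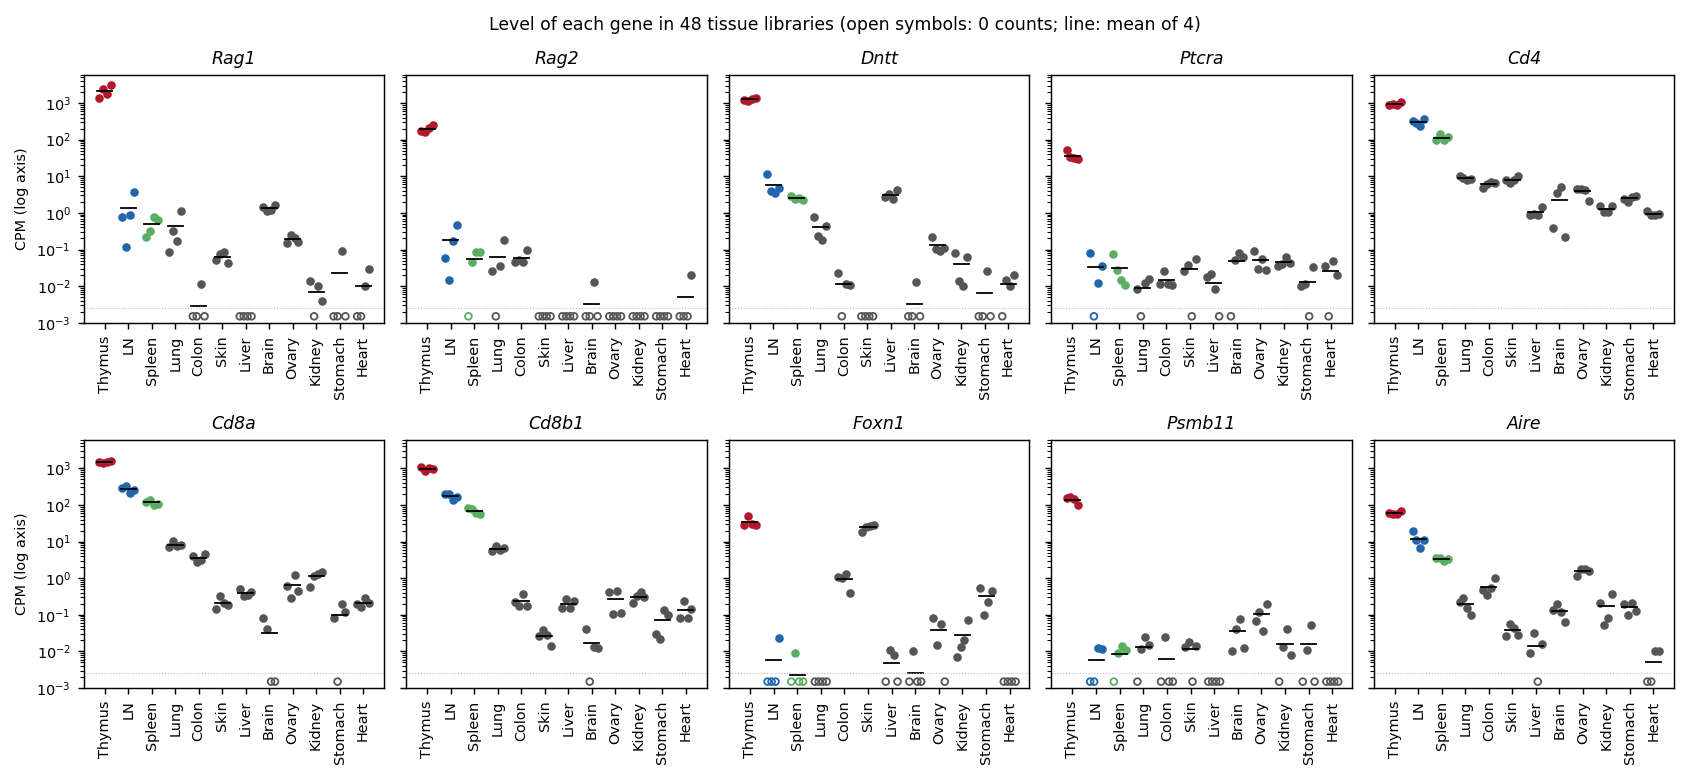
Level of each of the 10 genes in the 48 tissue libraries, in CPM on a log axis, one panel per gene; each point is a library, lines are means of 4, and open symbols stand for 0 counts. Thymus points lie above those of every other tissue except in the Foxn1 panel, where the skin libraries at 18.8 to 29.1 CPM overlap the thymus libraries at 28.7 to 48.98 CPM.

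The genes of recombination and of the pre-T-cell receptor were far lower in every other tissue than in thymus. Rag1 (ENSMUSG00000061311, chr2:101638282-101649501, minus strand) read 1416, 2451, 1778 and 3081 CPM in thymus, against 0.763, 0.116, 0.860 and 3.72 CPM in LN and 0.226, 0.318, 0.762 and 0.651 CPM in spleen. The groups did not overlap, and LN replicate 4 stood above the other LN libraries. The name of that library carries the code D804, as do those of thymus and lung replicate 4, while all spleen libraries carry D812. Rag1 was also highest in lung replicate 4, at 1.14 CPM against 0.0862 to 0.325 CPM in the other lung libraries. Colon and stomach replicate 4, also D804, held 0 counts of Rag1. Rag2 (ENSMUSG00000032864, chr2:101624718-101632529, plus strand) read 177, 166, 212 and 247 CPM in thymus, against 0.0587, 0.0145, 0.172 and 0.467 CPM in LN, again without overlap and again highest in LN replicate 4. That LN library held 40 counts of Rag2, 3 counts of Ptcra and 1 count of Psmb11, the cortical epithelial gene. In thymus, Psmb11 reached 140 ± 30.2 CPM. Lung replicate 4 held 24 counts of Rag2, against at most 3 in another lung library. The source of the Rag1 and Rag2 counts in these LN and lung libraries was not tested. Dntt (ENSMUSG00000025014, chr19:41029275-41059525, plus strand) was measured at 1241, 1126, 1299 and 1331 CPM in thymus, and at 11.4, 3.86, 3.48 and 4.75 CPM in LN and 2.85, 2.46, 2.57 and 2.30 CPM in spleen. Ptcra (ENSMUSG00000036858, chr17:46755663-46763712, minus strand) was at 51.7, 32.7, 30.8 and 29.9 CPM in thymus, and at most 0.0822 CPM in any LN library and 0.0753 CPM in any spleen library.

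Against LN, edgeR's quasi-likelihood test with Benjamini-Hochberg adjustment over 26242 genes called all 10 members higher in thymus, where 28.8% of the genes tested were called higher. The log2 fold change was 10.94 (SE 0.68, adjusted p = 1.88e-15) for Rag1, 10.43 (SE 0.63, adjusted p = 1.62e-12) for Rag2, 9.98 (SE 0.66, adjusted p = 1.83e-15) for Ptcra and 7.70 (SE 0.42, adjusted p = 6.47e-17) for Dntt. Against spleen, the same 4 genes gave 11.70, 11.35, 10.05 and 8.88, each with an SE of at most 0.70, and again all 10 members were called higher, where 29.4% of genes were. The median member log2 fold was 8.84 against LN and 9.46 against spleen, and over all genes tested it was 0.09 and 0.15. Single libraries moved some folds: against LN, Rag1 gave 11.58 without LN replicate 4 and Ptcra 10.97 without LN replicate 1, and against spleen, Ptcra gave 10.72 without spleen replicate 1. Foxn1 gave 12.03 against LN and 14.31 without LN replicate 4, and 12.83 against spleen and 14.28 without spleen replicate 2; these fitted values rest on few or no counts in LN and spleen and are no bounds. Both contrasts use the same thymus libraries. Rag2, Ptcra and Psmb11 averaged at least 1 CPM in thymus and in no other tissue, so they passed the low-count filter through the group in which they were high, and the counts of members describe these genes and are not evidence about a list.

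The coreceptor genes were found in all 3 lymphoid organs, and most in thymus. Cd4 (ENSMUSG00000023274, chr6:124864692-124888221, minus strand), whose product binds MHC class II, read 906, 925, 892 and 1039 CPM in thymus (mean 940 ± 67.1), against 325.5, 291, 233 and 367 CPM in LN (303.8 ± 56.7) and 97.2, 142, 96.0 and 118 CPM in spleen (113 ± 21.7). Cd8a (ENSMUSG00000053977, chr6:71373427-71379173, plus strand), whose product binds MHC class I, read 1466, 1435, 1497 and 1597 CPM in thymus (mean 1499 ± 70.3), against 293, 334.4, 208 and 255 CPM in LN (273 ± 54.01) and 124, 141, 102 and 105 CPM in spleen (118 ± 18.1). Cd8b1 (ENSMUSG00000053044, chr6:71322788-71337494, plus strand), the partner chain of CD8 alpha, read 1080, 859, 1021 and 953 CPM in thymus (mean 978 ± 95.1), against 204, 195, 136 and 166 CPM in LN (175 ± 30.8) and 80.5, 79.4, 61.6 and 57.2 CPM in spleen (69.7 ± 11.99). For each of these genes the libraries of the 3 organs did not overlap, with thymus above LN and LN above spleen. Thymus over LN, the log2 fold was 1.58 (SE 0.42, adjusted p = 0.0016) for Cd4, 2.42 (SE 0.33, adjusted p = 1.07e-07) for Cd8a and 2.44 (SE 0.28, adjusted p = 2.58e-09) for Cd8b1, all by edgeR. Thymus over spleen, it was 3.01 (SE 0.44, edgeR adjusted p = 4.18e-07) for Cd4, 3.59 (SE 0.35, adjusted p = 4.91e-11) for Cd8a and 3.78 (SE 0.30, adjusted p = 2.46e-13) for Cd8b1.

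The balance of the coreceptors was compared inside each library, where depth cancels. There were 0.618, 0.645, 0.596 and 0.651 Cd4 counts per Cd8a count in thymus, against 1.11, 0.869, 1.12 and 1.44 in LN. All thymus libraries lay below all LN libraries; the difference of log2 ratios was -0.83, with an exact two-sided permutation p of 0.0286, the smallest that 4 against 4 libraries can give, and an adjusted p of 0.0857 over 6 ratio tests, which does not pass 0.05. With thymus and LN libraries paired by number the exact permutation p was 0.125, the smallest that 4 pairs can give. The ratio of Cd8b1 to Cd8a was 0.737, 0.599, 0.682 and 0.597 in thymus, against 0.695, 0.583, 0.654 and 0.653 in LN, and the groups overlapped (difference of 0.01 on the log2 scale, exact permutation p = 0.886). Between LN and spleen the log2 ratio of Cd4 to Cd8a differed by 0.22 (exact permutation p = 0.286, adjusted p = 0.343) and that of Cd8b1 to Cd8a by 0.13 (exact permutation p = 0.143, adjusted p = 0.214). Rag1 gave 7.99, 14.8, 8.37 and 12.5 counts per Rag2 count in thymus, against 13, 8, 5 and 7.97 in LN, with overlapping groups (log2 difference 0.56, exact permutation p = 0.143, adjusted p = 0.214). The LN ratios of Rag1 to Rag2 rest on as little as 1 count of Rag2 in a library.

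**Figure D2:**
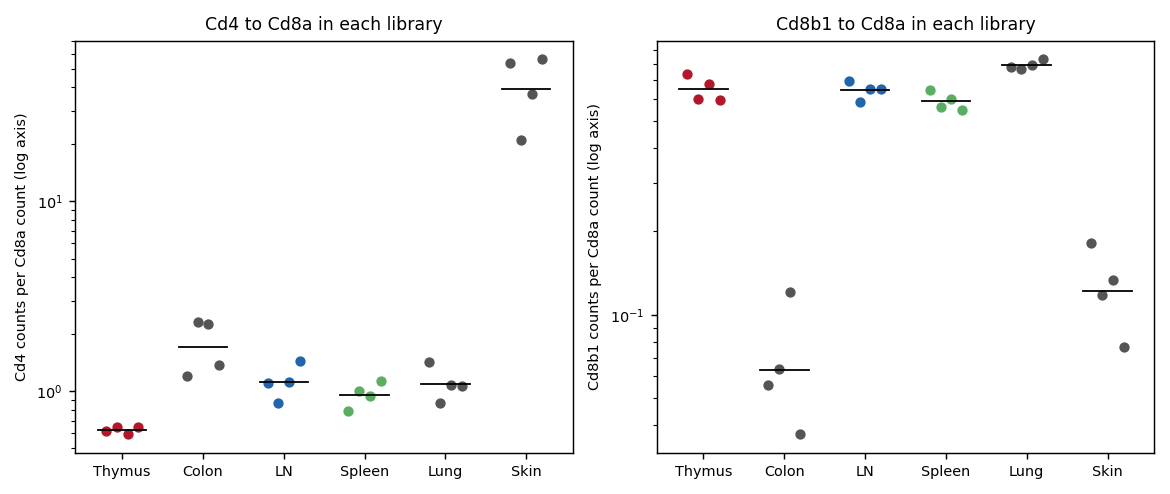
Cd8b1 counts per Cd8a count and Cd4 counts per Cd8a count in each library of 6 tissues, on log axes; each point is a library. Thymus, LN, spleen and lung lie close together for Cd8b1 to Cd8a. Colon lies at 0.0372 to 0.121 and skin at 0.0769 to 0.182, which overlap. Thymus lies below LN for Cd4 to Cd8a.

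In the ratio of Cd8b1 to Cd8a, colon and skin lay below the lymphoid organs. Colon held 3.97, 2.75, 3.08 and 4.61 CPM of Cd8a, and 0.222, 0.176, 0.374 and 0.171 CPM of Cd8b1. There were 0.0559, 0.0639, 0.121 and 0.0372 Cd8b1 counts per Cd8a count in colon, below every LN library (log2 difference -3.31, exact permutation p = 0.0286, adjusted p = 0.0857, which does not pass 0.05). CD8 alpha can form a dimer with itself, and in mice many T cells of the gut epithelium carry that form. The part of such cells in the colon ratio was not tested. In lung the ratio was 0.786, 0.768, 0.796 and 0.833, with Cd8a at 7.04 to 10.1 CPM. In skin, Cd4 read 7.67, 6.66, 7.82 and 10.2 CPM and Cd8a 0.144 to 0.317 CPM, which gave 53.4, 21, 36.8 and 55.8 Cd4 counts per Cd8a count. The skin ratios of Cd8b1 to Cd8a were 0.182, 0.118, 0.133 and 0.0769, overlapping colon, on at most 2 counts of Cd8b1 in a library. Kidney lay at 0.202 to 0.366.

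The epithelial genes separated by their second tissue. Psmb11 (ENSMUSG00000072423, chr14:54621433-54629556, plus strand) read 159, 164, 141 and 97.4 CPM in thymus, against 2 counts in all LN libraries together and 3 counts in all spleen libraries. From counts alone, Psmb11 was 22233-fold higher in thymus than in LN (95% counting interval 6154 to 183588) and 15681-fold higher than in spleen (5365 to 76041). Foxn1 (ENSMUSG00000002057, chr11:78357577-78386558, minus strand) read 28.7, 48.98, 30.7 and 28.8 CPM in thymus, against 2 counts in LN, both in replicate 4, and 1 count in spleen; the ratio of thymus to LN was 5810 (95% counting interval 1608 to 47983) and that of thymus to spleen 12294 (2206 to 485637). Such intervals cover counting error only.

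Foxn1 levels in thymus and skin overlapped. FOXN1 is also needed for hair growth, and its loss gives the nude mouse. Skin read 18.8, 24.9, 25.9 and 29.1 CPM of Foxn1, so the groups overlapped, with means of 34.3 ± 9.84 CPM in thymus and 24.7 ± 4.32 CPM in skin (log2 fold 0.35, SE 0.44, edgeR adjusted p = 0.481). The other 9 members were called higher in thymus than in skin, where 37.0% of genes were. Rag2 and Dntt had 0 counts in the 4 skin libraries, which allows up to 0.0110 CPM, and Psmb11 had 3 counts there. Colon held 1.08, 1.04, 1.33 and 0.397 CPM of Foxn1, above all libraries of liver, lung, heart, brain, LN and spleen, and stomach held at most 0.556 CPM.

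Aire (ENSMUSG00000000731, chr10:78030022-78043610, minus strand) was the epithelial member with the most signal in LN and spleen. It read 59.4, 58.3, 58.4 and 67.4 CPM in thymus, against 19.6, 10.8, 6.82 and 11.1 CPM in LN and 3.61, 3.51, 2.90 and 3.24 CPM in spleen, with no overlap between any pair of the 3 organs. Thymus over LN gave a log2 fold of 2.30 (SE 0.37, edgeR adjusted p = 2.57e-06) and thymus over spleen 4.13 (SE 0.41, edgeR adjusted p = 6.36e-11). Dnmt3l, which overlaps exons of Aire on the other strand, was at 1.32 CPM in thymus, 0.335 CPM in LN and 0.101 CPM in spleen, below Aire in each; whether the counting used strand is not stated in the sources used here. Rag1 and Rag2 also share exon bases with B230118H07Rik, which lies on the same strand as Rag1 and on the other strand from Rag2. B230118H07Rik averaged 18.3 CPM in thymus and 5.26 CPM in LN. It reached 38.0 CPM in heart, where Rag1 had 4 counts over 4 libraries.

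LN and spleen were then compared with each other. In LN, 5 of 10 members were higher than in spleen, where 12.9% of genes were: Aire (log2 fold 1.83, SE 0.37, edgeR adjusted p = 0.000262), Cd4 (1.42, SE 0.42, adjusted p = 0.0113), Cd8b1 (1.33, SE 0.28, adjusted p = 0.00031), Dntt (1.18, SE 0.33, adjusted p = 0.00789) and Cd8a (1.17, SE 0.32, adjusted p = 0.00631). The median member log2 fold was 1.05, and that of all genes 0.02. The Dntt call rested on LN replicate 1, at 11.4 CPM; without it the log2 fold was 0.58 with an edgeR adjusted p of 0.209. Dntt also lost its call when LN and spleen alone were fitted (log2 fold 1.25, edgeR adjusted p = 0.0519). Rag1, Rag2, Ptcra, Foxn1 and Psmb11 were not called between LN and spleen.

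Against the 9 non-lymphoid tissues, 10 of 10 members were called higher in thymus (40.4% of genes), 7 of 10 in LN (34.5% of genes) and 7 of 10 in spleen (35.7% of genes). The 3 members not called in LN or in spleen were Ptcra, Foxn1 and Psmb11 in both cases. These folds set a tissue against the mean of log levels over tissues, so a gene at 0 in several of them can be called against tissues where its arithmetic mean is higher.

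Among non-lymphoid tissues, a few held a single member of a pair that works together. Brain held 1.46, 1.12, 1.20 and 1.69 CPM of Rag1, which overlaps the LN range, with 1 count of Rag2 and 1 count of Dntt in all 4 libraries. Liver held 2.66, 3.19, 2.44 and 4.19 CPM of Dntt, with 0 counts of Rag1 and of Rag2 in 4 libraries, which allows up to 0.0077 CPM. In plain CPM the Dntt range overlapped those of LN and spleen. The TMM factors that scale library totals in the tests were 0.458 to 0.498 in liver and 1.23 to 1.26 in spleen, so the overlap with spleen holds for plain CPM only. Colon held 0.0444 to 0.0965 CPM of Rag2 with 1 count of Rag1. Ovary held 1.16, 1.73, 1.75 and 1.58 CPM of Aire, below every spleen library and above every library of the other 8 non-lymphoid tissues, with Dnmt3l at 2.48 CPM in the same organ.

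In contrasts chosen after these levels were seen, Rag1 was higher in brain than in the mean of log levels of the other 8 non-lymphoid tissues (log2 fold 5.71, SE 0.43, edgeR adjusted p = 2.42e-14; 2 of 10 members called higher and 2 lower, where 36.0% and 35.2% of genes were). Dntt was higher in liver (log2 fold 8.36, SE 0.27, edgeR adjusted p = 2.12e-25; 3 members higher and 1 lower, where 29.5% and 34.7% of genes were). Aire was higher in ovary (log2 fold 3.63, SE 0.26, edgeR adjusted p = 6.95e-15; 4 members higher, where 32.5% of genes were). As the levels chose these contrasts, the p-values describe them and support nothing further. In the planned contrasts of this kind, skin had 2 members higher (31.6% of genes) and 4 lower (27.5%), led by Foxn1 (log2 fold 9.94, SE 0.31, edgeR adjusted p = 6.97e-24). Colon had 5 higher (31.0% of genes), led by Foxn1 (4.90, SE 0.38, adjusted p = 4.83e-13) and Rag2. Lung had 6 higher (32.7% of genes), led by Cd8b1 at 5.55 and Cd8a at 4.22 on the log2 scale, and 1 lower (25.2%), Ptcra. The Ptcra call is near the floor, with at most 2 counts in a lung library and a mean of at most 0.0515 CPM in any tissue but thymus.

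Genes that work beside the members were counted by list. Of 12 genes of V(D)J cutting and end joining, which seals the RAG breaks, 7 were higher and 2 lower in thymus than in LN. Their median log2 fold was 0.44 (0.09 over all genes, of which 28.8% were higher and 23.5% lower). Lig4, the ligase of the pathway, averaged 97.5 ± 5.43 CPM in thymus and 10.5 ± 0.471 CPM in LN (log2 fold 3.18, edgeR adjusted p = 1.01e-20), and Xrcc6, the Ku70 subunit that holds DNA ends, averaged 355 ± 40.5 CPM in thymus and 43.1 ± 2.57 CPM in LN (3.00, adjusted p = 1.26e-22). The 2 that were lower were polymerases, Poll (8.25 CPM in thymus, 20.9 CPM in LN) and Polm (31.4 CPM in thymus, 60.7 CPM in LN). Of 18 early thymocyte genes, 12 were higher and 2 lower, with a median of 1.33. Arpp21 averaged 382 ± 35.4 CPM in thymus and 0.340 ± 0.153 CPM in LN, and Myb averaged 819 ± 40.7 CPM in thymus and 39.5 ± 4.38 CPM in LN. The 2 that were lower were the stem cell factor receptor Kit and the Notch target Dtx1.

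T cell receptor genes and mature T cell genes lay on opposite sides of LN. Of 16 genes of the T cell receptor complex and its signalling, 13 were higher and 0 lower in thymus than in LN (median log2 fold 1.45), where 28.8% of all genes were higher. Among the 13 were the constant regions Trbc1 (log2 fold 2.71) and Trbc2 (2.54) and the adaptor Lat (2.41). Of 14 genes of mature peripheral T cells, 0 were higher and 14 lower, where 23.5% of all genes were lower (median -1.68). S1pr1, the receptor through which T cells leave the thymus, averaged 44.8 ± 5.99 CPM in thymus and 269 ± 28.3 CPM in LN (log2 fold -2.63), and Foxp3, which defines regulatory T cells, averaged 6.67 ± 0.915 CPM in thymus and 38.2 ± 5.59 CPM in LN (-2.56). Against spleen, 15 of 16 receptor genes were higher, where 29.4% of all genes were. Of 14 mature T cell genes, 10 were lower against spleen, where 22% of all genes were, with 1 higher. The lists were chosen with earlier results of these data known.

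Most thymic epithelial genes beyond the members were higher in thymus than in LN and spleen. The list is not specific to thymus: its summed level was 4194 to 5983 CPM in thymus and 10533 to 11170 CPM in skin, and 2585 to 7154 CPM in stomach and 4438 to 5456 CPM in colon overlapped the thymus. Of 24 thymic epithelial genes, 17 were higher and 4 lower in thymus than in LN (median log2 fold 3.96), and 20 were higher and 3 lower than in spleen (median 6.13). Pax1, a transcription factor of the pharyngeal pouches from which the thymus forms, averaged 133 ± 33.2 CPM in thymus and 0.0258 ± 0.0132 CPM in LN. Fezf2, which drives antigens of other organs in medullary cells, averaged 25.4 ± 3.46 CPM in thymus with 0 counts in LN, at least 2821-fold higher, and Pax9, 16.2 ± 2.27 CPM in thymus with 0 counts in LN, was at least 1792-fold higher; both bounds use 3 counts over the LN libraries as the floor. Among the 4 that were lower were the chemokines Ccl19 (log2 fold -3.89) and Ccl21a (-1.24), which stromal cells of the LN also make, and Kitl (-1.35). Of 8 genes known to depend on AIRE, 7 were matched by symbol and 6 passed the filter. In thymus against LN, 3 of 6 were higher and 0 lower, beside 28.8% of all genes higher. The list median was a log2 fold of 4.84, or 2.64 with genes at 0 counts set at their bound. Against spleen 2 of 6 were higher and 0 lower, beside 29.4% of all genes higher. The median there was 2.61, or 0.12 with such genes at their bound. Csn2, a milk casein, averaged 16.9 ± 1.76 CPM in thymus and 0.138 ± 0.0437 CPM in LN (log2 fold 6.96, edgeR adjusted p = 9.93e-08).

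The proteasome was compared because PSMB11 takes the place of other catalytic subunits. Of 6 such subunits, 3 were higher in thymus than in LN and 0 lower (median log2 fold 0.46), beside 28.8% of all genes higher. The 3 were Psmb6 (0.67), Psmb5 (0.62) and Psmb7 (0.59), and the immunoproteasome subunits Psmb8, Psmb9 and Psmb10 were not called. Against spleen, 2 of 6 were higher and 0 lower, beside 29.4% of all genes higher, and 0 of 6 were called when only the groups compared were fitted or without thymus replicate 1, spleen replicate 2 or spleen replicate 4.

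**Figure D3:**
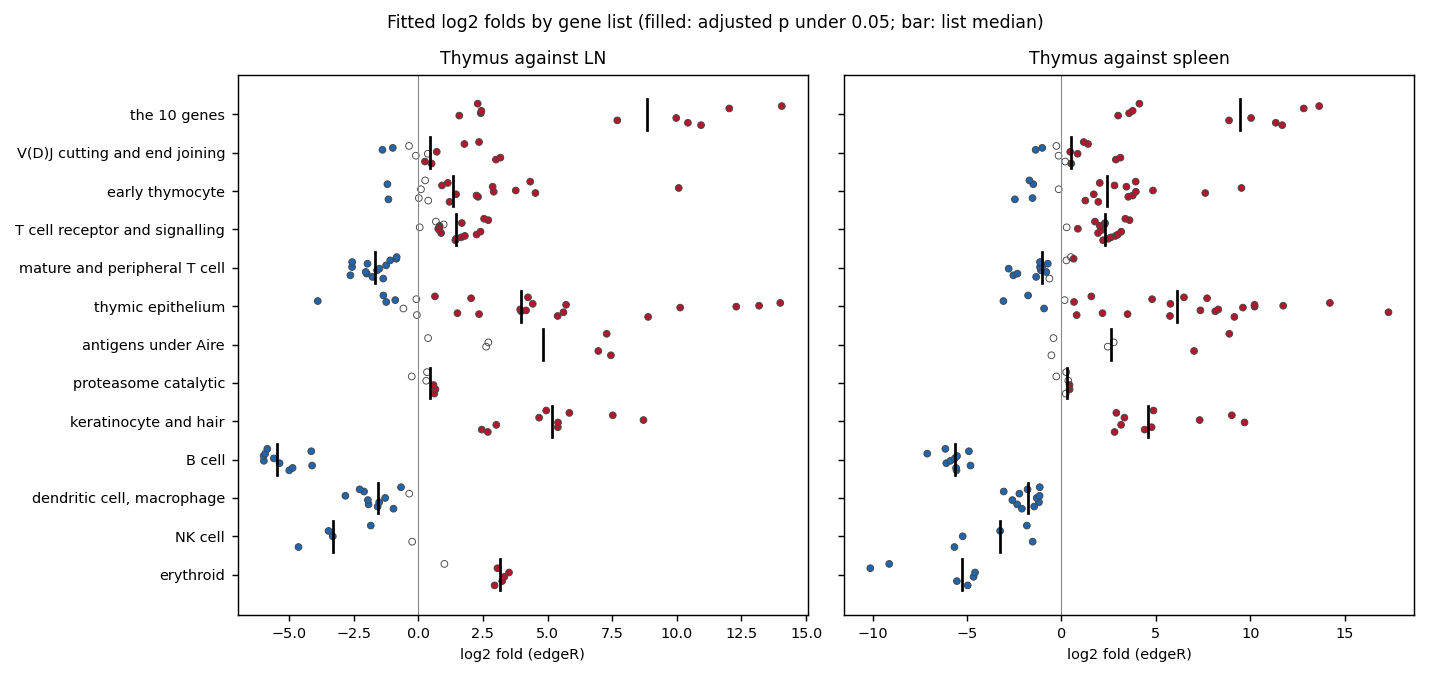
Fitted log2 folds of thymus over LN and thymus over spleen for the 10 members and for each gene list; each point is a gene, filled where the edgeR adjusted p is under 0.05, and bars are list medians. Mature T cell genes lie below 0 with a median of -1.68 against LN, and thymic epithelial genes lie above 0 with a median of 3.96 and 4 genes called lower.

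Markers of other cells moved with the same contrast. In thymus against LN, 23.5% of all genes were lower and 28.8% higher. Of 10 B cell genes, 0 were higher and 10 lower in thymus than in LN (median log2 fold -5.48). Their summed level ran from 119 to 142 CPM in thymus, against 3351 to 5668 CPM in LN and 5551 to 6723 CPM in spleen, with all 10 detected in every library. Of 11 dendritic cell and macrophage genes, 10 were lower and 0 higher (median -1.57), with sums of 240 to 284 CPM in thymus against 607 to 882 CPM in LN, and of 5 NK cell genes 4 were lower and 0 higher (median -3.31), with sums of 14.6 to 17.3 CPM in thymus against 49.1 to 72.7 CPM in LN. Of 5 tested pre-B genes, 3 were lower, and Vpreb1, a surrogate light chain gene, was higher at 2.64 ± 0.986 CPM in thymus against 0.555 ± 0.205 CPM in LN. Of 6 red cell genes, 5 were higher against LN and 6 of 6 were lower against spleen, with sums of 84.0 to 873 CPM in thymus, against 14.4 to 80.6 CPM in LN and 4720 to 16777 CPM in spleen. All 10 keratinocyte and hair genes were higher in thymus (median 5.17 against LN, 5.04 with genes at 0 set at their bound), though Krt10 averaged 13.03 ± 2.03 CPM and Lor 1.37 ± 0.386 CPM there, and the list summed to 16.1 to 21.8 CPM in thymus against 1.98 to 3.28 CPM in LN. Of 6 parathyroid, thyroid and fat genes 4 were higher and 0 lower in thymus than in LN, and of 9 genes that mark other organs 6 were higher and 0 lower, beside 28.8% of all genes higher. The part of these cells in the member values was not tested.

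Some genes correlated with single members across the 48 tissue libraries. Pearson correlation of log2(CPM + 0.1) is given as a description across libraries that share tissue and depth. Some pairs of members were close: 0.991 for Ptcra and Psmb11, 0.978 for Cd8a and Cd8b1, 0.951 for Rag1 and Rag2. Other pairs were not: Foxn1 gave 0.201 with Cd8b1 and at most 0.648, with Ptcra. Among genes that are neither members nor predicted gene models, Nron was nearest to Rag2 (0.990), Ptcra (0.987) and Psmb11 (0.986), followed for each by the T cell receptor alpha joining segment Traj59 and by Chrna9, an acetylcholine receptor subunit. Rag1 was nearest to Traj59 (0.952), Nron (0.949) and Csn2 (0.946). Nron averaged 19.1 CPM in thymus and 0.0734 CPM in LN, its next tissue. Rag2, Ptcra, Psmb11, Nron, Traj59 and Chrna9 averaged under 1 CPM in every tissue but thymus. Their correlations with one another therefore largely restate thymus against the other tissues, and do not show that they share a cell type. Dntt was nearest to Cd1d2 (0.928), followed by the beta variable segments Trbv23 and Trbv24. Cd4 was nearest to Trbc2 (0.977), Cd8a to the costimulatory receptor gene Cd27 (0.974) and Cd8b1 to Trbv19 (0.986). Foxn1 was nearest to Skint8 (0.973), Skint7 and Krt17, whose highest mean outside the thymus was in skin. Aire was nearest to Pdcd1 (0.945), the gene of the inhibitory receptor PD-1, followed by Cnga1 and Utf1.

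In cultured cells Aire was the member with clear signal. Aire had counts in all 27 B16 and B16OVA libraries of the tested runs, at 0.272 to 10.4 CPM with a median of 1.86 CPM. It had counts in 2 of 9 MCAOVA libraries, at most 0.0457 CPM, in 3 of 9 MC38 libraries, at most 0.0886 CPM, and in 0 of 5 melanocyte libraries, which allows up to 0.0236 CPM. Its range differed by run: 0.525 to 2.59 CPM in run B253, 0.740 to 3.42 CPM in run B262 and 0.272 to 10.4 CPM in run D176, which held B16OVA but no B16 library. A contrast of B16OVA with MCAOVA was chosen after these values were seen. It pooled WT, Ctrl and Setdb1KO libraries within each line, and run D176 held no MCAOVA library, so each SD mixes genotypes and runs. Aire was higher in B16OVA, at 2.73 ± 3.07 CPM (n = 18) against 0.00995 ± 0.0197 CPM in MCAOVA (n = 9, log2 fold 6.97, SE 0.74, edgeR adjusted p = 6.68e-10). Dntt was lower there, at 0.0344 ± 0.104 CPM in B16OVA against 0.196 ± 0.191 CPM in MCAOVA with overlapping groups (log2 fold -2.53, SE 0.76, edgeR adjusted p = 0.00496), and in that contrast 31.3% of genes were called higher and 27.2% lower.

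The series compares Setdb1KO with Ctrl cells to ask what loss of Setdb1, a histone methyltransferase that helps silence transposable elements, changes in tumour lines. Setdb1 itself was at 17.1 ± 4.78 CPM in Setdb1KO and 62.2 ± 2.77 CPM in Ctrl B16 cells (SD, n = 3 each), with a log2 fold of -1.85 (edgeR adjusted p = 9.8e-05). It was at 33.5 ± 13.2 CPM in Setdb1KO and 70.4 ± 27.7 CPM in Ctrl B16OVA cells, and at 27.9 ± 8.22 CPM in Setdb1KO and 68.0 ± 25.5 CPM in Ctrl MCAOVA cells. In MC38 it was at 73.2 ± 12.7 CPM in the libraries labelled Setdb1KO and 101 ± 39.8 CPM in Ctrl, which edgeR did not call (log2 fold -0.52, adjusted p = 1).

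Only Aire and Dntt passed the low-count filter in the cultures, 2 of 10 members. In each of the 4 lines edgeR called 0 of these 2 between Setdb1KO and Ctrl, none had an unadjusted p under 0.05 (0), and DESeq2 also called 0. Aire had 0 counts in MCAOVA Setdb1KO libraries and 2 in Ctrl, and 1 count in each of these groups in MC38. Dntt had at most 1 count in a B16 library of these groups and at most 3 in an MC38 library. With so few counts, those tests could not show whether the genes changed. The share of all genes called in either direction was 0.69% in B16, 1.05% in B16OVA, 0.345% in MCAOVA and 0.464% in MC38. In B16OVA, Aire read 1.05, 2.81, 1.04, 9.84, 1.51 and 10.4 CPM in Setdb1KO, against 0.893, 0.755, 0.740, 4.25, 4.30 and 0.681 CPM in Ctrl, and the groups overlapped (log2 fold 0.97, SE 0.50, edgeR adjusted p = 0.706). In B16, Aire averaged 2.66 ± 0.627 CPM in Setdb1KO and 2.39 ± 0.899 CPM in Ctrl (log2 fold 0.25, SE 0.68, edgeR adjusted p = 1).

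**Figure D4:**
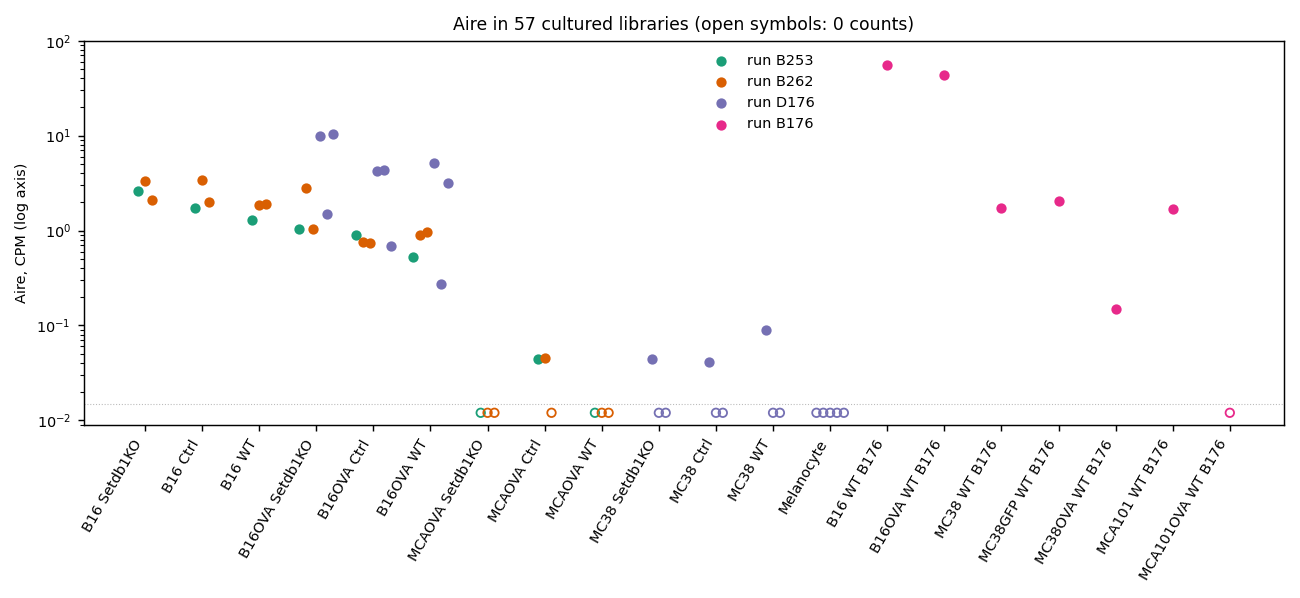
Aire in the 57 cultured libraries, in CPM on a log axis, by cell line and genotype with Setdb1KO to the left of Ctrl; each point is a library and open symbols stand for 0 counts. B16 and B16OVA libraries lie between 0.272 and 10.4 CPM in the tested runs and at 55.6 and 43.1 CPM in run B176.

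The remaining members were close to the limit of detection in tumour cells. Cd8a had 0 counts in all 45 tested tumour libraries, which allows up to 0.00212 CPM over their pooled depth, and 0 counts in the 7 of run B176. Rag1 had 2 counts and Rag2 1 count in the 45 libraries together. Dntt had counts in 18 of 45, at most 0.615 CPM, in an MCAOVA WT library. Cd4 had 57 counts, or 1.86 CPM, in melanocyte replicate 2, against 6 counts in the 45 tumour libraries together.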

How the data were processed

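Counts of reads per gene were deposited by the authors as one table of 105 mouse poly(A) RNA-seq libraries (TruSeq Stranded mRNA, per the labels' protocols). Per the submitters' processing notes, Trim Galore, FastQC, STAR, HTSeq and mm10 were used; the sources used here state no version, annotation or strand setting. Levels are counts per 1000000 counts of the library (CPM), or CPM per kilobase of exon in GENCODE vM21. Coordinates are mm10.

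Tests used edgeR 4.0.16 in R 4.3.3 (TMM, filterByExpr by group, quasi-likelihood, a term per group and one for the sequencing run, Benjamini-Hochberg, called at an adjusted p under 0.05): 48 tissue libraries with 26242 genes, and 45 tumour libraries with 16809 genes. The scripts were tested on simulated data. Ratios of genes inside a library were compared by exact permutation with 0.5 added to each count. Floors are 3 counts of the pooled total, and intervals are 95%; both cover counting error only. No 2 replicates of a group were identical (154 pairs).

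Library sets, which follow the numbers in the library names, were taken as pairing where libraries of the same set deviated together (every correlation over 0.1). This held for thymus and LN (0.186 to 0.328), and for Setdb1KO and Ctrl in B16, B16OVA and MCAOVA. It did not hold for thymus and spleen, LN and spleen, or thymus and skin. Replicates 4 to 6 of B16OVA share a single set, and each cell line set lies within a single run code. Alternatives were DESeq2 1.42.0, RLE size factors, other filters, no run term, only the groups compared, the pairing as a block and leaving out single libraries. Genes named are the 10 members, up to 3 called genes per list and direction of at least 1 CPM, and, per member, the 3 most alike genes that are neither members nor predicted models. Members and lists were chosen with earlier results of these data known. Setdb1, Psmb8, Psmb9, Psmb10, Dnmt3l and B230118H07Rik are named outside that rule. Some genes the rule would name are not reported here.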

Additional observations from a re-analysis of the deposited data

Results flagged for a closer look

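A library far from the other 3 was found in 6 of 40 tissue groups of a member with a mean of at least 1 CPM, by its gap to the nearest library over the range of the group, set against Dixon's 95% critical value; by construction, chance flags about 1 in 20 groups. Dntt read 11.4 CPM in LN replicate 1, above 3.48 to 4.75 CPM in the other LN libraries. Ptcra read 51.7 CPM in thymus replicate 1, above 29.9 to 32.7 CPM in the others. Foxn1 read 48.98 CPM in thymus replicate 2 and Aire 67.4 CPM in thymus replicate 4, each the highest of its group. Cd4 read 1.45 CPM in liver replicate 4, the highest liver library, and 2.16 CPM in ovary replicate 4, the lowest ovary library.

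Signal also appeared in the 7 single libraries of run B176, which entered no test. Aire read 55.6 CPM in the B16 library and 43.1 CPM in the B16OVA library of that run, against 0.272 to 10.4 CPM in the 27 B16 and B16OVA libraries of the other runs and 0 counts in 5 melanocyte libraries. In the same run Aire read 2.05 CPM in MC38GFP, 1.72 CPM in MC38, 1.67 CPM in MCA101, 0.150 CPM in MC38OVA and 0 in MCA101OVA. Dnmt3l, the gene on the other strand, read 1.91 CPM in that B16 library and 0.0553 CPM in that B16OVA library, and 28.7 CPM in the MC38 library.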

How the results depend on the processing

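The number of members called was within 1.5 times its reported value in 229 of 229 alternatives. It was not constant: it ran from 6 to 8 in LN and in spleen against the 9 non-lymphoid tissues, and from 3 to 6 in brain. Single log2 folds were followed mainly for members called in the reported fits, and only in settings that tested the gene. Calls gained by other members were not counted. Within these limits the log2 fold kept its direction and side of the threshold in 1285 cases and lost its call in 3. Those were Dntt in LN against spleen, with a log2 fold of 1.25 when only the groups compared were fitted and 0.58 without LN replicate 1, and Cd8a in liver (0.71, edgeR adjusted p = 0.0917 when only the groups compared were fitted). The log2 ratio of Cd8b1 to Cd8a, thymus against LN, was reversed without thymus replicate 1 (-0.046), thymus replicate 3 (-0.0089) or LN replicate 2 (-0.035), and ran from -0.046 to 0.055 over libraries left out. The cause was not tested. No proteasome subunit was called in thymus against spleen (0) when only the groups compared were fitted, or without spleen replicate 2, spleen replicate 4 or thymus replicate 1, and 3 of the parathyroid, thyroid and fat genes were called at a minimum of 1 CPM. With the replicate block, 10 members were called in thymus against LN, as without it, and the block changed no member's call; no paired analysis was possible in MC38 because its libraries form a single set. Scaled to TMM library sizes, Cd4 averaged 715 CPM in thymus, 238 CPM in LN and 91.1 CPM in spleen. Depth limits Psmb11, Ptcra and Rag2 outside the thymus and Foxn1 in LN and spleen, where few counts were seen.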
